A study of Mus musculus with 57 samples.

Results

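The genes described here are 35 markers of the blood vessels of the brain, 25 of endothelial cells and 10 of mural cells. They were taken by symbol from a deposited table of 18088 genes measured in mouse prefrontal cortex, and all 35 are in it. Of the mural genes, 7 mark pericytes and 3 mark smooth muscle. The rule that lists them uses no measured value, but they were chosen with earlier results of these data known. All 35 passed the filter on low values.

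The study sequenced poly(A) RNA of prefrontal cortex from male and female C57BL/6J mice that were heterozygous for the Shank3 delta C allele (HT) or wild type (WT) at that gene. Shank3 encodes a scaffold protein of excitatory synapses. Pups received lithium, fluoxetine or vehicle through the mother's milk from postnatal day 3 to 24, over 3 weeks, and tissue was taken on day 25. Lithium is a mood stabiliser and fluoxetine a serotonin reuptake inhibitor. Doses and litters are not given in the sources used here. Pups of 1 mother share her treatment and libraries may come from littermates, so treatment and litter cannot be told apart, and p-values measure the spread between libraries.

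The 56 libraries used formed 12 groups. There were 4 males and 5 females in HT lithium, 5 males and 4 females in WT lithium, and 5 of each sex in HT fluoxetine and in WT fluoxetine. HT vehicle had 3 males and 5 females, and WT vehicle had 5 of each sex. Reads recovered by undoing the size factors numbered 22984556 to 35969254 per library. Of the 56 libraries 2 stood apart before any test, namely HT vehicle female 1, with choroid plexus genes 5.70 above the median of all libraries on the log2 scale, and HT lithium female 5, with mitochondrially encoded transcripts at a log2 difference of -1.57 from it. The summed value of 5 olfactory bulb genes also varied from library to library, from 239 to 14785. Shank3 itself had a median of 8027 in HT vehicle and 7616 in WT vehicle with overlapping values, which checks no label, because a gene-level value joins all transcripts of the gene and may lie outside the deleted part. Values below are gene counts divided by the authors' size factor of the library, called scaled counts.

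Endothelial cells line every vessel of the brain and form the blood-brain barrier, with sealed junctions, few vesicles and dedicated carriers for glucose and lipids. Pericytes wrap the capillaries, and smooth muscle cells wrap arteries and arterioles; both kinds are called mural. Growth in this bed depends on VEGF, angiopoietin, apelin and TGF-beta family receptors on the endothelium, and on PDGF and Notch receptors on the mural cells. The vessels are still maturing during the weeks before weaning, the period of the treatment. In bulk tissue, fewer cells of a type and less RNA per cell cannot be told apart, and this holds for every result below.

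Levels of different genes were compared per transcript length, as reads per kilobase scaled to library depth (RPKM). Slc2a1, the glucose transporter of the barrier, was the most abundant endothelial transcript at 36.5. Next came Vtn at 33.7 and Rgs5 at 33.5, both pericyte genes (vitronectin and a regulator of G-protein signalling). The endothelial surface proteins Ly6c1 and Itm2a stood at 33.5 and 31.5, and Cldn5, the main tight junction claudin, at 25.0. These defining markers of endothelium and pericytes were far from 0 in every library.

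At the other end were Aplnr, the apelin receptor, at 0.89, Foxq1, a forkhead factor, at 0.70, and Prnd, a prion-like protein of developing brain vessels, at 0.34. Prnd was at 0 in 2 libraries, WT lithium male 2 and WT lithium female 3. It also had the largest spread between libraries of 1 group, an SD of 1.02 on the log2 scale, followed by Aplnr with 0.60. The steadiest were Lmo2, a LIM-domain partner of endothelial transcription factors, and Abcb1a, the P-glycoprotein drug efflux pump, each with 0.14. The median over all genes tested was 0.19.

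**Figure D1:**
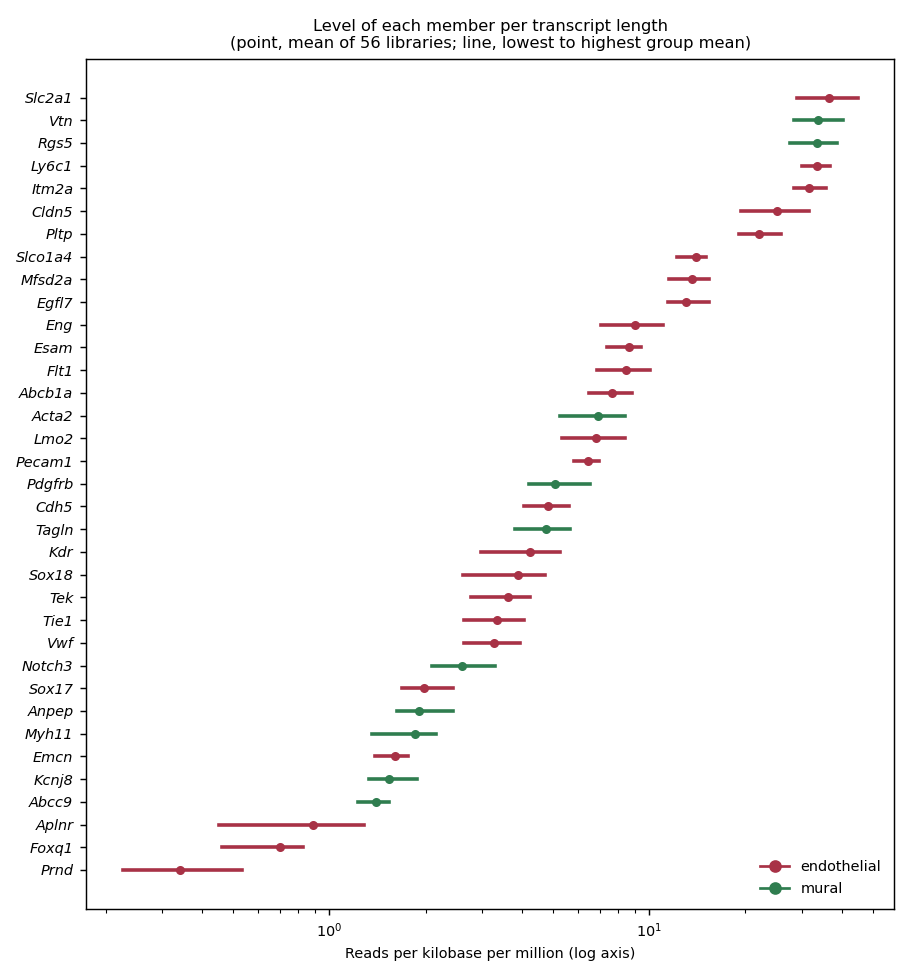
Mean level of each of the 35 genes over 56 libraries, in RPKM (by the longest transcript) on a log axis, with a line from the lowest to the highest of the 12 group means; red marks endothelial and green mural genes. Slc2a1 (36.5) leads and Prnd (0.34) is lowest, and the lines are short beside the differences between genes.

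Each library was also given a class level, the mean log2 deviation of its 25 endothelial or 10 mural genes from their averages over all libraries. The endothelial level averaged 0.10 ± 0.08 in HT lithium males, 0.12 ± 0.17 in HT lithium females, -0.18 ± 0.14 in WT lithium males and 0.00 ± 0.12 in WT lithium females. In the fluoxetine groups it was -0.01 ± 0.23 in HT males, -0.08 ± 0.11 in HT females, -0.07 ± 0.12 in WT males and 0.03 ± 0.17 in WT females. Under vehicle it was -0.08 ± 0.12 in HT males, 0.04 ± 0.07 in HT females, 0.17 ± 0.08 in WT males and -0.06 ± 0.10 in WT females (SD, n = 3 to 5 libraries). WT lithium males were the lowest group and WT vehicle males the highest. The 5 WT lithium males lay between -0.37 and -0.02 and the 5 WT vehicle males between 0.08 and 0.28, without overlap. These 2 groups were picked as the extremes of 12, so their separation is in part built in. In WT females the ranges overlapped, at -0.15 to 0.12 under lithium and -0.23 to 0.05 under vehicle. There the lithium mean was the higher of the 2. The other 10 group means lay between -0.08 and 0.12, beside SDs of 0.07 to 0.23.

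Mural levels were highest in WT vehicle males (0.18 ± 0.10) and HT lithium males (0.14 ± 0.05), and lowest in HT vehicle males (-0.15 ± 0.11) and WT vehicle females (-0.11 ± 0.15). Over the 56 libraries the endothelial and mural levels had a Pearson r of 0.71 and a Spearman rho of 0.72, and r was 0.68 with the group means removed. The points share a library, its depth and its dissection, and the values are a description.

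Single pairs of genes, with group means removed, ran together most closely within smooth muscle, where the actin gene Acta2 and the actin-binding gene Tagln had r = 0.81. Vtn and Acta2 had 0.78, Slc2a1 and Ly6c1 0.76, Itm2a and Rgs5 0.75, and the adherens junction cadherin Cdh5 and the receptor Tie1 0.74. Kdr and Aplnr, which are receptors for VEGF and apelin, had 0.72. The lowest of all pairs was Egfl7, a secreted endothelial factor, with Vtn at -0.47. The median pair stood at 0.25 among endothelial genes, 0.34 among mural genes and 0.26 across the classes.

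**Figure D2:**
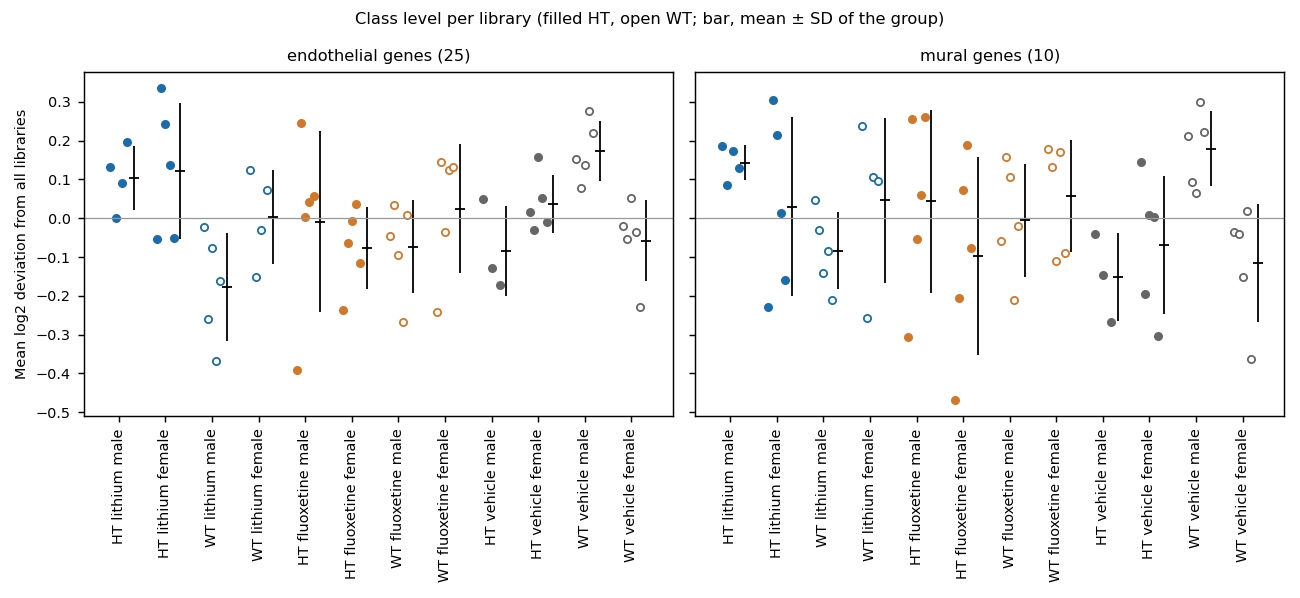
Class level of each library (points; filled HT, open WT; blue lithium, orange fluoxetine, grey vehicle) as the mean log2 deviation over 25 endothelial genes (left) and 10 mural genes (right), with the mean ± SD of each of the 12 groups. WT lithium males (-0.18) and WT vehicle males (0.17) are the lowest and highest endothelial groups.

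Lithium against vehicle was compared in each genotype with the sexes averaged, in 1 limma fit over all 12 groups. Calls rest on the 18026 genes that were tested together, at a Benjamini-Hochberg threshold of 0.05. Fold changes are on the log2(value + 1) scale, drug minus vehicle, with the SE. The genotypes share no animals, but the lithium and fluoxetine comparisons of a genotype share their vehicle libraries.

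In WT mice lithium lowered 7 of the 25 endothelial genes and raised 1, against 4.65% of all genes tested called lower and 7.05% called higher (11.7% in either direction). The 7 were 3 growth factor receptors (Kdr, Tek and Aplnr), the claudin gene Cldn5, the regulator Lmo2 and 2 surface or secreted proteins (Egfl7 and Prnd). Slc2a1 rose. Of the 10 mural genes 1 was lower, the pericyte receptor gene Pdgfrb, and 0 were higher. The median fold change was -0.06 in both classes and -0.003 over all genes tested. These values average the sexes. In WT males the endothelial level was -0.18 under lithium and 0.17 under vehicle. In WT females it was 0.00 under lithium and -0.06 under vehicle, so the group means moved in opposite directions. For the sex difference of the lithium effect in WT, 0 of the 35 genes were called.

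In HT mice the called genes were others, apart from Slc2a1, and all went up. Lithium raised 7 of the 25 endothelial genes and 1 of the 10 mural genes, and lowered none, against 5.06% of all genes called higher and 4.7% lower (9.77% in either direction). The endothelial 7 were 3 growth factor receptors (Eng, Tie1 and Flt1), 2 transporters (Slc2a1 and Abcb1a), Sox17 and Vwf, and the mural gene was Myh11. Medians were 0.14 in the endothelial and 0.22 in the mural class. With a correction for GC content and transcript length, 1 endothelial gene, Abcb1a, and 0 mural genes were called in HT, and 2.83% of all genes. The corrected fold changes of all 8 stayed positive, at 0.26 for Abcb1a, 0.34 for Eng, 0.32 for Tie1, 0.27 for Flt1, 0.25 for Slc2a1, 0.32 for Sox17, 0.24 for Vwf and 0.45 for Myh11, against the values without correction given below. In WT the correction left the calls in place except that of Cldn5, and 8.84% of all genes were called. A further setting, chosen after seeing the data, added the olfactory level beside that correction as a covariate. This level is the mean log2(value + 1) of the olfactory bulb genes. With it 5 of the 7 endothelial genes (Eng, Tie1, Flt1, Abcb1a and Sox17) and Myh11 were called. The share of all genes called with it was not computed, so this count has no background beside it. Without the 14 libraries of highest olfactory level, also chosen after seeing the data, Abcb1a and Myh11 were not called. The slope of a library's values on gene GC content, per 10 percentage points, averaged 0.06 in HT lithium males and 0.05 in HT lithium females, against -0.07 in HT vehicle males and -0.04 in HT vehicle females. In WT lithium it was -0.02 in males and -0.01 in females, against 0.06 in WT vehicle males and -0.06 in WT vehicle females.

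**Figure D3:**
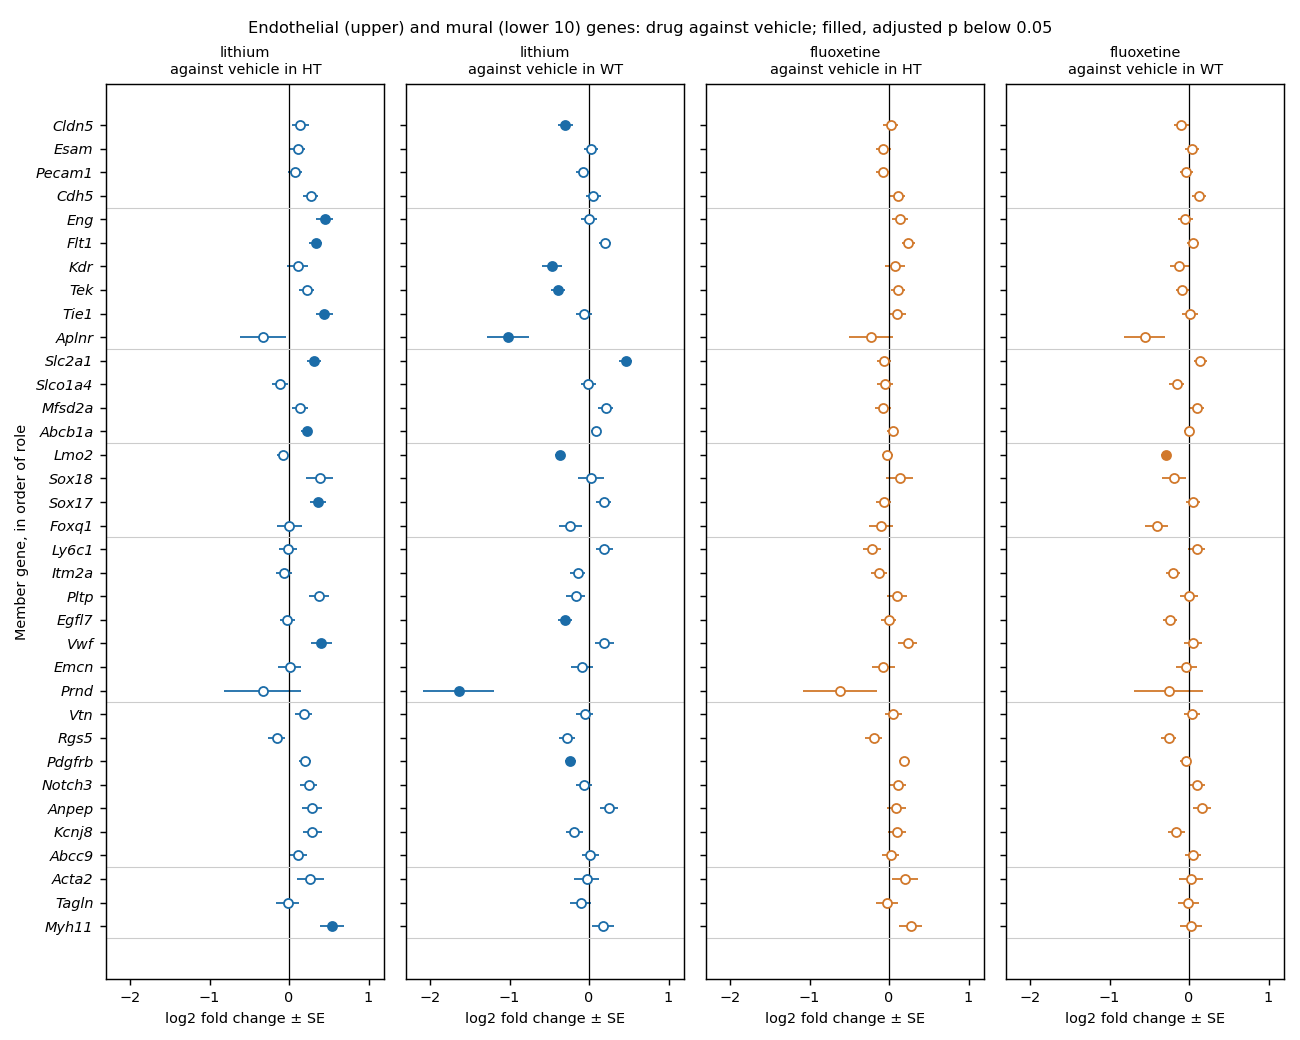
Log2 fold change ± SE of each gene, drug against vehicle with the sexes averaged, for lithium in HT, lithium in WT, fluoxetine in HT and fluoxetine in WT; filled points have a limma adjusted p below 0.05. The called points of lithium lie right of 0 in HT and, apart from Slc2a1, left of 0 in WT, and fluoxetine has 1 called point, Lmo2 in WT.

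Among growth factor receptors, the angiopoietin receptor Tek was called lower under lithium in WT and was not called in HT. Scaled counts of Tek ran from 299 to 530 (median 403) in WT lithium and from 424 to 637 (median 529) in WT vehicle. Most WT lithium libraries lay below most vehicle libraries, with an overlap of the ranges. The fold change was -0.39 ± 0.09 (adjusted p = 0.00228, limma). In HT, Tek ran from 406 to 748 (median 502) under lithium and from 365 to 505 (median 454) under vehicle, with 0.22 ± 0.09 (adjusted p = 0.138, limma).

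Kdr, the main VEGF receptor of sprouting endothelium, had 384 to 827 scaled counts (median 571) in WT lithium and 585 to 1030 (median 867) in WT vehicle. Its fold change was -0.47 ± 0.12 (adjusted p = 0.00795, limma), and in HT it was 0.11 ± 0.13 (adjusted p = 0.676, limma). For Aplnr the range was 9.54 to 109 (median 66.1) in WT lithium and 73.8 to 162 (median 126) in WT vehicle, a fold change of -1.02 ± 0.27 (adjusted p = 0.00774, limma). WT lithium male 4, with 9.54, was far below the other 8 WT lithium libraries, and Aplnr was also called without it. In HT the same gene had 54.6 to 133 (median 82.8) under lithium and 77.0 to 142 (median 116) under vehicle, with -0.33 ± 0.29 (adjusted p = 0.537, limma).

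The other receptors moved in HT and not, as calls, in WT. Eng, the TGF-beta and BMP co-receptor endoglin, had 706 to 1177 scaled counts (median 1097) in HT lithium and 653 to 916 (median 792) in HT vehicle. HT lithium female 5 lay inside the vehicle range and the other 8 lithium libraries above it. The fold change was 0.45 ± 0.11 (adjusted p = 0.00465, limma), and -0.003 ± 0.10 in WT (adjusted p = 0.988, limma).

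Tie1, the orphan partner of Tek, had 422 to 561 (median 482) in HT lithium and 334 to 454 (median 347) in HT vehicle, with 0.45 ± 0.11 (adjusted p = 0.00620, limma). Only the highest vehicle library reached the lithium range. Flt1, the VEGF receptor that acts mainly as a decoy, had 1507 to 2482 (median 1969) in HT lithium and 1240 to 1744 (median 1451) in HT vehicle, with 0.33 ± 0.08 (adjusted p = 0.00764, limma). Its change in WT was 0.20 ± 0.08 (adjusted p = 0.0853, limma). With the GC and length correction the HT fold changes were 0.34 for Eng (adjusted p = 0.0734, limma), 0.32 for Tie1 (adjusted p = 0.0855, limma) and 0.27 for Flt1 (adjusted p = 0.0601, limma).

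**Figure D4:**
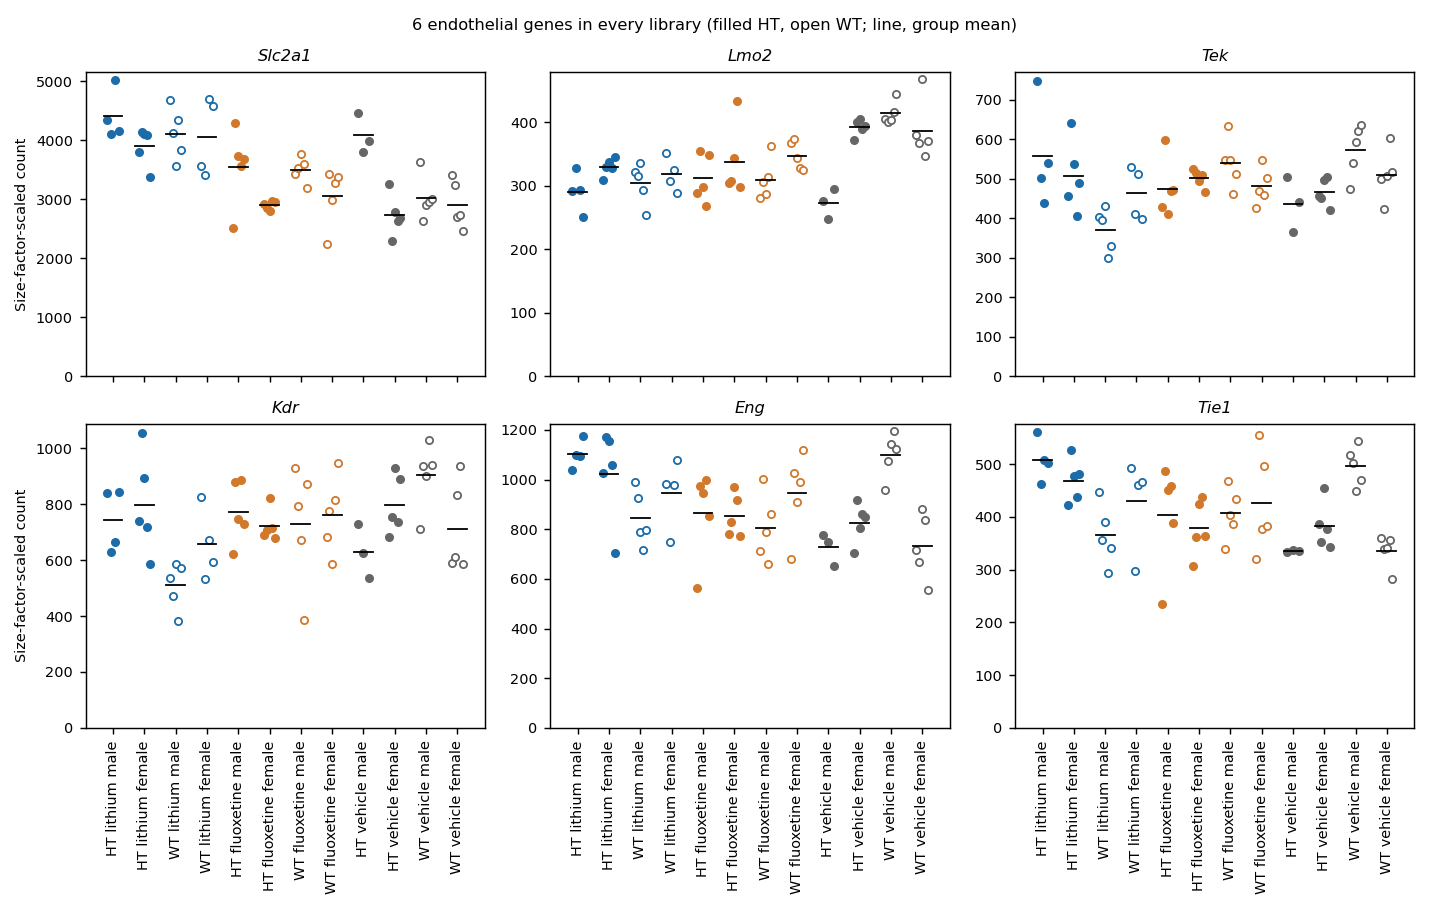
Scaled counts of 6 endothelial genes in each library (points; filled HT, open WT; blue lithium, orange fluoxetine, grey vehicle) with the mean of each of the 12 groups as a line. Slc2a1 is high in lithium groups and in HT vehicle males, Lmo2 is highest in 3 of the 4 vehicle groups, Tek and Kdr are lowest in WT lithium males, and Eng and Tie1 are high in HT lithium and in WT vehicle males.

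Promoters of Slc2a1 and of these receptors, apart from Aplnr, are shown, picked with the calls known. Tek and Kdr were called lower in WT, as was Aplnr, and Flt1, Eng and Tie1 were called higher in HT. Each is 300 bases, 250 before and 50 after the start, from RefSeq (GRCm38.p6), written 5′ to 3′ on the strand of the gene. Capitals mark AGGAAG or its complement CTTCCT, a hexamer that holds the core bound by ETS factors, a family with known roles in endothelial transcription. It was searched on both strands and no other motif was searched.

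Slc2a1 (chr4:119108495-119108794, plus strand): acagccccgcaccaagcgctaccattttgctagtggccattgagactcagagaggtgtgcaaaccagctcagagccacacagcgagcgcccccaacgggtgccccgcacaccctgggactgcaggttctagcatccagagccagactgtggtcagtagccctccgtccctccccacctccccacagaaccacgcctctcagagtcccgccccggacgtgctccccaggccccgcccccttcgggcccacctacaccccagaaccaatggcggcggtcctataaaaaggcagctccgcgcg

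Tek (chr4:94739039-94739338, plus strand): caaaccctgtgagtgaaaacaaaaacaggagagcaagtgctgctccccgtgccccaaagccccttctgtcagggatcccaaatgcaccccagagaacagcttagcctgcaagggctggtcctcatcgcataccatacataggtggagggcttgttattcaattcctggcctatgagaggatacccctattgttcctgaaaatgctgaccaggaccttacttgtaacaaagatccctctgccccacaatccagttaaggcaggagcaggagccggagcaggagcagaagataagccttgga

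Kdr (chr5:75978406-75978705, minus strand): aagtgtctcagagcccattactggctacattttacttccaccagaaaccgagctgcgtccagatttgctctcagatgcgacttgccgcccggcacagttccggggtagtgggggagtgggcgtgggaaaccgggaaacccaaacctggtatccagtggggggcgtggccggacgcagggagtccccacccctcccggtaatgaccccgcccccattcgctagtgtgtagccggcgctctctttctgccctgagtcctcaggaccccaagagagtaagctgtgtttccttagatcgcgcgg

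Flt1 (chr5:147725962-147726261, minus strand): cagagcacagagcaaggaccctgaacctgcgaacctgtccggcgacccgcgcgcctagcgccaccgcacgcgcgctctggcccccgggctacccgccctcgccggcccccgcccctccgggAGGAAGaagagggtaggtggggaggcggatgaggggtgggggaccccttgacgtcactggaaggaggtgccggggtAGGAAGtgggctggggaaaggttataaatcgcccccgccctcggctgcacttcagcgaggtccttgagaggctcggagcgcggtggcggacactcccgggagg

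Eng (chr2:32646345-32646644, plus strand): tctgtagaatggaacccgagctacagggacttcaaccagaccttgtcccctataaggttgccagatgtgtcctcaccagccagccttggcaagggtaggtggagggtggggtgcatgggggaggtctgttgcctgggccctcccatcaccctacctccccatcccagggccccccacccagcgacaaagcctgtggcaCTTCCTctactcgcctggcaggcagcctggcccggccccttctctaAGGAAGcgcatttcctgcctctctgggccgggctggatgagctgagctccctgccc

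Tie1 (chr4:118489800-118490099, minus strand): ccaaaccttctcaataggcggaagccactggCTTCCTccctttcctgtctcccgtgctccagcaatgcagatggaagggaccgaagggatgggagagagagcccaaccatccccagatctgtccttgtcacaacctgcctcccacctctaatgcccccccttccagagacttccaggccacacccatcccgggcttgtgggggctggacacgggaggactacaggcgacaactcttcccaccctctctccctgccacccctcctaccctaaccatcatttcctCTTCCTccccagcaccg

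The hexamer occurred at 2 places each in the Flt1, Eng and Tie1 promoters and at none in those of Slc2a1, Tek and Kdr. Slc2a1 was itself called higher in HT and in WT. The shorter run ttcc, part of CTTCCT, does occur in the Tek and Kdr promoters, so lacking the hexamer is not lacking its core. Of the 16 endothelial genes whose promoter was given, 9 held the hexamer, and of the 7 mural genes 0, against 35.4% of all 32851 promoters of that length. A gene was counted if any of its promoters held the hexamer, while 35.4% is a share of single promoters, so the measures differ. A match of letters is a description and no site of binding, and for 12 of the 35 genes no promoter was searched.

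Of the 4 transporters, Slc2a1 rose in both genotypes. It had 3404 to 4699 scaled counts (median 4127) in WT lithium and 2453 to 3633 (median 2931) in WT vehicle, with 0.46 ± 0.08 (adjusted p = 1.04e-04, limma). In HT it had 3369 to 5015 (median 4101) under lithium and 2298 to 4467 (median 3015) under vehicle, with 0.31 ± 0.09 (adjusted p = 0.0153, limma). The HT vehicle libraries split by sex, with 3802 to 4467 in the 3 males and 2298 to 3251 in the 5 females, whereas HT lithium had 4101 to 5015 in males and 3369 to 4139 in females. The HT value was 0.25 with the GC and length correction (adjusted p = 0.122, limma). Slc2a1 is made by astrocytes as well as endothelium. Of 8 astrocyte markers 0 were called higher and 1 lower in WT, and 1 higher and 0 lower in HT. The share of all genes called was 11.7% in WT and 9.77% in HT. The markers' summed value averaged 151033 in HT lithium females against 130914 under vehicle, and 157969 against 154599 in HT males. In WT it averaged 149472 against 136630 in females and 141869 against 142480 in males. The part of astrocytes in the Slc2a1 values was not tested.

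Abcb1a had 961 to 1572 (median 1218) in HT lithium and 834 to 1210 (median 1010) in HT vehicle, with 0.22 ± 0.07 (adjusted p = 0.0327, limma). It was the smallest called change in HT, and leaving out any 1 of 8 libraries ended the call (HT lithium male 1, male 3, female 2 and female 4, and HT vehicle male 2, male 3, female 2 and female 5, adjusted p up to 0.0938). It also ended without the 14 libraries of highest olfactory level (0.14, adjusted p = 0.249). Mfsd2a, the lipid carrier that restrains vesicle transport, was at 0.14 ± 0.10 in HT and 0.21 ± 0.09 in WT, and Slco1a4, an organic anion carrier, at -0.12 ± 0.10 in HT and -0.01 ± 0.10 in WT, none called.

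Of 4 transcriptional regulators, Lmo2 was called in WT. Its scaled counts were 254 to 352 (median 316) in WT lithium and 348 to 468 (median 402) in WT vehicle, so that only 1 lithium library passed the lowest vehicle library. The fold change was -0.36 ± 0.07 (adjusted p = 1.36e-04, limma), and in HT it was -0.08 ± 0.07 (adjusted p = 0.547, limma). HT vehicle was split here too, with 276, 248 and 294 in the males and 372 to 405 in the 5 females.

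Sox17, a factor of arterial endothelium, had 195 to 284 (median 228) in HT lithium and 163 to 215 (median 182) in HT vehicle, with 0.36 ± 0.10 (adjusted p = 0.0141, limma). The highest vehicle library lay inside the lithium range. Sox18, its relative, had 0.38 ± 0.17 in HT and 0.02 ± 0.16 in WT, and Foxq1 0.00 ± 0.15 in HT and -0.24 ± 0.14 in WT. Neither was called.

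Of 4 junction and adhesion genes, Cldn5 was called in WT. It had 539 to 1232 (median 913) in WT lithium and 887 to 1453 (median 1136) in WT vehicle, with -0.30 ± 0.09 (adjusted p = 0.0308, limma). This value averages the sexes, which were unlike. WT males had 539 to 1043 under lithium and 1196 to 1453 under vehicle, without overlap. WT females had 849 to 1232 under lithium and 887 to 1076 under vehicle, with an overlap. Leaving out any 1 of 7 libraries ended that call (WT lithium male 4, male 5, female 2 and female 4, and WT vehicle male 4, female 2 and female 3, adjusted p up to 0.0979), and so did the GC and length correction (-0.22, adjusted p = 0.133). The platelet-endothelial adhesion gene Pecam1, Cdh5 and Esam changed by -0.08 to 0.05 in WT and 0.07 to 0.27 in HT, with no call.

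Egfl7, which restrains smooth muscle recruitment and shapes vessel tubes, had 510 to 759 (median 648) in WT lithium and 622 to 919 (median 792) in WT vehicle, with -0.30 ± 0.09 (adjusted p = 0.0168, limma). Without WT lithium female 1 its adjusted p was 0.0608. Prnd had 0 to 38.5 (median 24.1) in WT lithium and 21.9 to 54.1 (median 40.8) in WT vehicle, with -1.64 ± 0.45 (adjusted p = 0.0110, limma). That call rests in part on the 2 libraries at 0: without WT lithium female 3 the value was -1.06 (adjusted p = 0.0648), and edgeR on the recovered reads gave -0.90 (adjusted p = 0.0666).

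Vwf, the von Willebrand factor of larger vessels, had 684 to 1030 (median 918) in HT lithium and 497 to 844 (median 716) in HT vehicle, with 0.41 ± 0.13 (adjusted p = 0.0312, limma). Its adjusted p was 0.106 without the 2 libraries that stood apart, and leaving out any 1 of 5 libraries ended the call (HT lithium female 5 and male 3, HT vehicle female 1, female 2 and male 3). Pltp, a phospholipid transfer protein, had 0.38 ± 0.13 in HT (adjusted p = 0.0521, limma) and -0.17 ± 0.12 in WT. Emcn, Itm2a and Ly6c1 lay between -0.14 and 0.19 in both genotypes.

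Pdgfrb, the PDGF receptor that pericytes need for recruitment, was the mural gene called in WT. It had 615 to 873 (median 712) in WT lithium and 639 to 1252 (median 875) in WT vehicle, with -0.24 ± 0.07 (adjusted p = 0.0220, limma). Leaving out WT lithium female 3, WT vehicle female 4 or WT vehicle male 4 ended the call (adjusted p up to 0.0634). The Pdgfrb value averages the sexes. Its effect in males minus that in females was negative and not called, as given below. Rgs5 followed without a call, with 2814 to 4389 (median 3548) in WT lithium and 2926 to 4985 (median 4594) in WT vehicle and a fold change of -0.28 ± 0.10 (adjusted p = 0.0620, limma). The other 5 pericyte genes, among them the channel subunits Kcnj8 and Abcc9, lay between -0.18 and 0.25 in WT and between 0.11 and 0.29 in HT.

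In smooth muscle, the myosin heavy chain gene Myh11 was called in HT, with 252 to 467 (median 426) in HT lithium and 173 to 369 (median 285) in HT vehicle and a fold change of 0.54 ± 0.15 (adjusted p = 0.0162, limma). Of the 9 lithium libraries 7 lay above the highest vehicle library. The call ended without HT vehicle male 3 (0.49, adjusted p = 0.0679) and with the GC and length correction (0.45, adjusted p = 0.0985). Acta2 had 0.27 ± 0.17 and Tagln -0.02 ± 0.14 in HT, with no call.

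Markers of other cells moved beside these values. In HT, myelin genes had a median of -0.43 (7 of 7 negative, 0 called), choroid plexus genes -0.65 (9 of 9 negative, 0 called by limma and 6 by edgeR) and red cell genes 0.21 (6 of 6 positive, 0 called). Choroid sums ran from 136 to 219 in HT lithium females and from 117 to 53943 in HT vehicle females, the top being female 1. In WT, myelin genes had a median of -0.23 (7 of 7 negative, 0 called) and 2 of 8 microglial genes were lower. Among 10 meningeal and perivascular fibroblast genes 1 was higher in each genotype. Beside these counts, 9.77% of all genes were called in HT and 11.7% in WT. The part of these other cells in the vessel results was not tested.

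Whether lithium acted differently in the 2 genotypes was asked by the interaction, the HT effect minus the WT effect. No endothelial and no mural gene was called by limma or by edgeR, against 3 of all genes (0.0166%), 2 of them higher (0.0111%) and 1 lower (0.00555%). An unadjusted p below 0.05 was found for 8 endothelial and 3 mural genes, beside 9.5% of all genes. Tek was nearest, at 0.61 ± 0.13 (adjusted p = 0.0972, limma), then Pdgfrb at 0.44 ± 0.10 (adjusted p = 0.169, limma). The sign was positive for 21 of 25 endothelial genes, with a median of 0.22, and for 10 of 10 mural genes, with a median of 0.27. The members vary together between libraries, so these signs are not separate results. No share of all genes with a positive sign is given beside them. The lower calls in WT and the higher calls in HT were therefore not shown to differ gene by gene.

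HT against WT gave no called gene of either class under vehicle, lithium or fluoxetine. Over all genes 0 (0%) were called by limma in each of these 3 comparisons, and edgeR called 1 gene under vehicle (0.00555%), 0 under lithium and 1 under fluoxetine (0.00555%), with 0 of the 35. Under vehicle, 18 of 25 endothelial and 8 of 10 mural values were negative, with medians of -0.13 and -0.15, and 5 and 2 of them had an unadjusted p below 0.05 (6.21% of all genes). Lmo2 and Pdgfrb were lowest by p, at -0.29 ± 0.07 each (adjusted p = 0.552, limma). Under lithium 22 of 25 endothelial and 9 of 10 mural values were positive, with medians of 0.15 and 0.11, and 7 and 0 had an unadjusted p below 0.05 (9.82% of all genes). Under fluoxetine the medians were -0.02 and -0.05, and 0 of the 35 had an unadjusted p below 0.05 (11.2% of all genes). As for the interaction, the signs in these comparisons are not separate results and have no share of all genes beside them.

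For fluoxetine in WT, 1 of the 25 endothelial genes was called, lower, and 0 of the 10 mural genes, against 1.99% of all genes lower, 3.19% higher and 5.18% in either direction (5.11% by edgeR). An unadjusted p below 0.05 was found for 19.6% of all genes. The gene was Lmo2, with 282 to 373 scaled counts (median 327) in WT fluoxetine and 348 to 468 (median 402) in WT vehicle. Its fold change was -0.29 ± 0.06 (adjusted p = 0.00447, limma), and it stayed called without any 1 library. Foxq1 at -0.41 ± 0.14 (adjusted p = 0.0710, limma) and Egfl7 at -0.24 ± 0.08 (adjusted p = 0.0827, limma) were next. Red cell genes in this comparison had a median of -0.51 (6 of 6 negative, 0 called) and myelin genes -0.65 (4 of 7 called lower), and their part in the Lmo2 value was not tested.

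For fluoxetine in HT, 0 of the 35 genes were called, and 0 of all genes (0%) by either tool. Of all genes 1307 (7.25%) had an unadjusted p below 0.05. Among the 35, 1 endothelial gene, Flt1 (0.24 ± 0.08, adjusted p = 0.441, limma), and 1 mural gene, Pdgfrb (0.19 ± 0.07, adjusted p = 0.496, limma), were below that unadjusted level. No member was called in the difference of the fluoxetine effects between HT and WT, where 0 of all genes (0%) were called by limma or edgeR, and 634 (3.52%) had an unadjusted p below 0.05.

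Males against females, averaged over genotype and treatment, gave 2 called genes of the 35, both endothelial, against 0.283% of all genes (0.316% by edgeR). Slc2a1 was higher in males at 0.22 ± 0.05 (adjusted p = 0.0178, limma). Lmo2 was lower in males at -0.16 ± 0.04 (adjusted p = 0.0452, limma), a call that ended when any 1 of 38 libraries, from all groups, was left out (adjusted p up to 0.116). The split of the HT vehicle libraries described above enters both values.

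The fluoxetine effect in WT differed between the sexes for 6 of the 35 genes, 4 endothelial and 2 mural, all with a lower effect in males, against 3.16% of all genes called lower and 7.74% in either direction. They were Pdgfrb, Notch3, Cldn5, Eng, Sox18 and Tie1. Notch3 is the Notch receptor of mural cells. For each of them the male mean lay below the female mean under fluoxetine and above it under vehicle.

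Pdgfrb had 697, 746, 762, 790 and 910 scaled counts in WT fluoxetine males and 811, 817, 844, 1009 and 1076 in WT fluoxetine females. In vehicle it had 890, 931, 984, 1078 and 1252 in WT males and 639, 688, 741, 745 and 861 in WT females. Fluoxetine males thus lay mostly below fluoxetine females, while the vehicle males were all above the vehicle females. The difference of effects, males minus females, was -0.70 ± 0.14 (adjusted p = 0.00529, limma).

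Notch3 repeated this pattern, with 487, 516, 591, 594 and 678 in WT fluoxetine males and 508, 574, 846, 866 and 873 in WT fluoxetine females. Under vehicle it had 628, 660, 720, 749 and 921 in WT males and 390, 453, 472, 555 and 567 in WT females, with no overlap between the sexes. Its difference was -0.92 ± 0.19 (adjusted p = 0.00619, limma).

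Cldn5 had 762, 822, 927, 1003 and 1011 in WT fluoxetine males and 868, 1279, 1343, 1378 and 1387 in WT fluoxetine females. Under vehicle it had 1196, 1225, 1273, 1318 and 1453 in WT males and 887, 952, 959, 1046 and 1076 in WT females. Males and females did not overlap under vehicle, and 4 of 5 fluoxetine females lay above every fluoxetine male. The difference was -0.85 ± 0.18 (adjusted p = 0.00727, limma).

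For Eng it was -0.83 ± 0.19 (adjusted p = 0.00959, limma), for Sox18 -0.99 ± 0.31 (adjusted p = 0.0393, limma) and for Tie1 -0.61 ± 0.20 (adjusted p = 0.0467, limma). The call of Sox18 ended when any 1 of 12 of the WT fluoxetine and vehicle libraries was left out (adjusted p up to 0.0849), and that of Tie1 when any 1 of 19 was, 5 of them HT libraries (adjusted p up to 0.128). With the GC and length correction 0 of the 6 stayed called. The differences were then -0.54 for Pdgfrb, -0.66 for Notch3, -0.58 for Cldn5, -0.61 for Eng, -0.70 for Sox18 and -0.39 for Tie1, with adjusted p from 0.0746 to 0.311. Without the 14 libraries of highest olfactory level, chosen after seeing the data, 0 were called as well. They were then -0.55 for Pdgfrb, -0.60 for Notch3, -0.65 for Cldn5, -0.96 for Eng, -1.06 for Sox18 and -0.47 for Tie1. The GC slope averaged -0.04 in WT fluoxetine males, 0.09 in WT fluoxetine females, 0.06 in WT vehicle males and -0.06 in WT vehicle females, so it was high in the 2 groups in which these genes were high. The summed olfactory value ran from 276 to 5620 in WT fluoxetine males, from 250 to 14785 in WT fluoxetine females, from 1422 to 8023 in WT vehicle males and from 360 to 7634 in WT vehicle females.

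**Figure D5:**
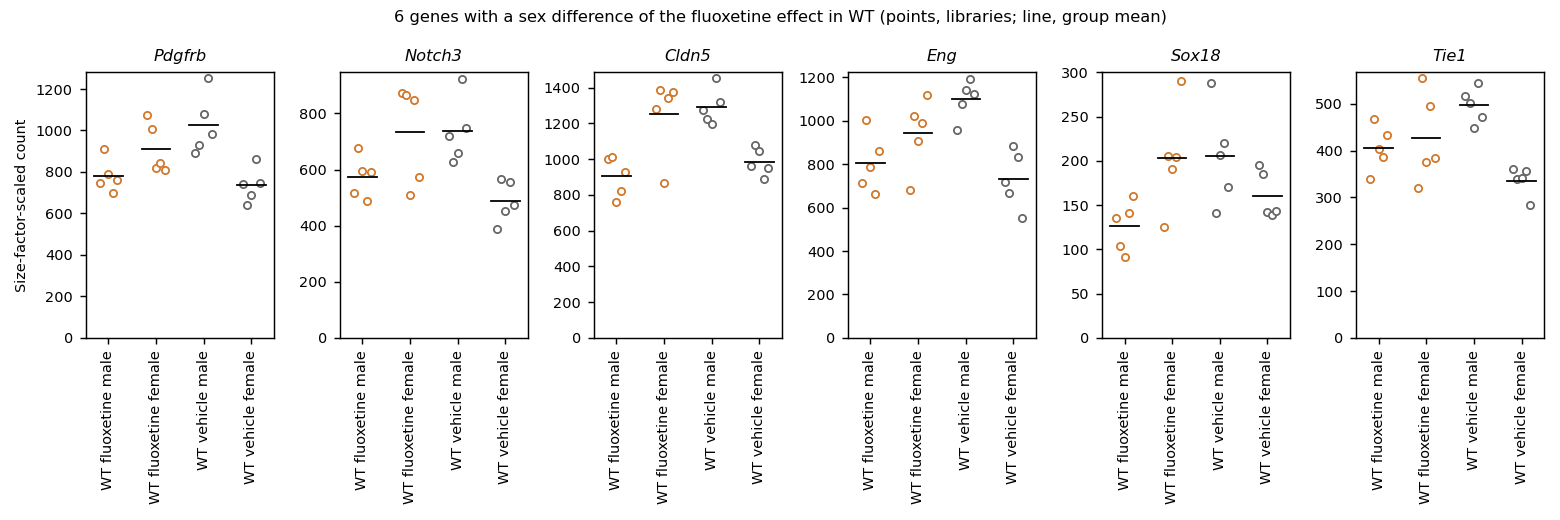
Scaled counts of 6 genes in each library of WT fluoxetine males, WT fluoxetine females, WT vehicle males and WT vehicle females, with group means as lines. Pdgfrb means are highest in vehicle males and lowest in vehicle females, and in each panel the male mean is below the female mean under fluoxetine and above it under vehicle.

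The other sex differences called 0 of the 35 genes. For the lithium effect in WT, which uses the same vehicle libraries, Pdgfrb had -0.69 ± 0.14, Notch3 -0.84 ± 0.20 and Cdh5 -0.75 ± 0.18 (adjusted p = 0.0943 each, limma), and 0 of all genes (0%) were called by limma or edgeR, with 1556 at an unadjusted p below 0.05. Over all genes 0.172% were called for the lithium effect in HT and 0.0277% for the fluoxetine effect in HT. For the HT effect under vehicle 0 (0%) were called by limma or edgeR, with 1574 at an unadjusted p below 0.05.

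Beyond the 35 genes, 10 lists of related vascular genes were read in the same fit, and several of their genes are also made by neurons or glia. The vascular basement membrane is the collagen and laminin sheet between endothelium and pericytes. Of its 13 genes lithium raised 6 in HT and 3 in WT and lowered none, against 5.06% of all genes called higher in HT and 7.05% in WT. In HT 13 of 13 were positive with a median of 0.23, and with the GC and length correction 11 of 13 with a median of 0.12. The share of all genes with a positive sign is not given beside these counts. The type IV collagen gene Col4a2 rose by 0.48 ± 0.07 in HT (adjusted p = 9.30e-06, limma) and by 0.31 ± 0.06 in WT (adjusted p = 5.45e-04, limma). Col4a1 rose by 0.38 ± 0.06 in HT (adjusted p = 9.06e-05, limma) and 0.22 ± 0.06 in WT (adjusted p = 0.00692, limma), and the laminin gene Lamb2 by 0.42 ± 0.09 in HT (adjusted p = 0.00210, limma) and 0.30 ± 0.09 in WT (adjusted p = 0.0160, limma). Col4a2 also rose under fluoxetine in WT, by 0.23 ± 0.06 (adjusted p = 0.0164, limma), alone of its list. With the correction 2 of the 13 were called under lithium in each genotype, all higher: Col4a2 (0.31) and Col4a1 (0.23) in HT, Col4a2 (0.26) and Lamb2 (0.25) in WT. The values not called were then 0.27 for Lamb2 in HT, 0.14 for Col4a1 in WT and 0.15 for Col4a2 under fluoxetine, and the corrected shares of all genes called were 2.83% for lithium in HT, 8.84% for lithium in WT and 2.64% for fluoxetine in WT.

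Among 21 further genes of barrier transport and junctions, lithium raised 5 and lowered 2 in WT and raised 1 and lowered 1 in HT. The share of all genes called was 11.7% in WT and 9.77% in HT, so the 2 of 21 in HT lie at the background. Lrp1, a clearance receptor, rose by 0.45 ± 0.07 in HT (adjusted p = 6.76e-05, limma) and by 0.41 ± 0.07 in WT (adjusted p = 2.91e-05, limma), and under fluoxetine by 0.39 ± 0.06 in WT (adjusted p = 3.47e-04, limma). In WT the efflux pump gene Abcc4 (0.41 ± 0.08) and the junction scaffold gene Tjp1 (0.21 ± 0.04) also rose, and in HT the transferrin receptor gene Tfrc fell (-0.34 ± 0.10, adjusted p = 0.0264, limma). With the correction 3 of the list were higher and 3 lower in WT (8.84% of all genes), and 1 was higher in HT (2.83% of all genes). The Lrp1 calls held (0.22 in HT, 0.24 in WT), and Tfrc had -0.24 with no call (adjusted p = 0.0789).

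Ligands of the receptors above and their co-receptors form a list of 12. Of all genes 9.77% were called under lithium in HT, 11.7% under lithium in WT and 5.18% under fluoxetine in WT. Without the GC and length correction, the 1 call of the list in HT lies near its share. Vegfa rose under lithium in HT (0.24 ± 0.07, adjusted p = 0.0140, limma) as the 1 call of the list, and under fluoxetine in WT (0.26 ± 0.06, adjusted p = 0.00607, limma). In WT lithium raised Nrp1, a VEGF co-receptor, by 0.28 ± 0.07 (adjusted p = 0.00637, limma), and lowered Vegfc (-0.34 ± 0.10) and Vegfb (-0.24 ± 0.08), and with the correction these had -0.29 for Vegfc (adjusted p = 0.0637) and -0.13 for Vegfb (adjusted p = 0.0883), with no call. Fluoxetine raised Nrp1 in WT by 0.34 ± 0.07 (adjusted p = 0.00259, limma). With the correction 2 of the 12 were higher and 0 lower under lithium in HT (2.83% of all genes called). Under lithium in WT 1 was then higher and 1 lower (8.84% of all genes). Under fluoxetine in WT 2 were higher (2.64% of all genes).

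Of 21 genes of canonical Wnt signalling, which induces the barrier, lithium raised 1 (the co-receptor gene Lrp6) and lowered 2 in WT, and raised 1 (Ppard) and lowered 1 in HT. These counts are near the shares of all genes called, 11.7% in WT and 9.77% in HT. Ctnnb1, which encodes beta-catenin, fell by 0.25 ± 0.05 in HT (adjusted p = 2.92e-04, limma) and by 0.27 ± 0.04 in WT (adjusted p = 2.77e-05, limma). Nkd1, a feedback inhibitor, fell in WT by 0.42 ± 0.08 under lithium (adjusted p = 1.36e-04, limma) and by 0.27 ± 0.07 under fluoxetine (adjusted p = 0.0199, limma). The 2 WT comparisons share their vehicle libraries, and these Wnt calls held with the correction except that of Lrp6 in WT (0.06, adjusted p = 0.325).

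Of 17 Notch and arterial genes 3 rose in HT under lithium (Jag2, Sema3g and Notch4, by 0.33 to 0.40), while in WT Notch4 rose (0.40 ± 0.09) and Gkn3, an arterial secreted protein, fell (-0.70 ± 0.20). Gkn3 and the ephrin gene Efnb2 fell under fluoxetine in WT (-0.66 ± 0.20 and -0.21 ± 0.06). Of 11 TGF-beta and BMP genes lithium raised Acvrl1, the receptor that works with endoglin (0.35 ± 0.09), and its target Id1 (0.30 ± 0.10) in HT and 0 in WT. Of 16 further endothelial factors 1 was higher in HT and 2 were higher and 1 lower in WT. Beside the counts of these lists, 9.77% of all genes were called under lithium in HT and 11.7% in WT. Under fluoxetine in WT the share was 5.18%. The 1 of 16 factors in HT is not above the background. Epas1, an oxygen-regulated factor, rose in both (0.34 ± 0.05 in HT, 0.17 ± 0.05 in WT), and Sox7 fell in WT (-0.51 ± 0.15). Fluoxetine lowered the forkhead factor Foxf2 in WT (-0.48 ± 0.12). With the correction the calls of Epas1 in HT (0.27) and of Notch4 (0.35) and Gkn3 (-0.65) in WT under lithium held. The values not called were then 0.17 for Jag2, 0.29 for Sema3g, 0.18 for Notch4, 0.25 for Acvrl1 and 0.27 for Id1 in HT, 0.11 for Epas1 in WT, and -0.61 for Gkn3 under fluoxetine. Corrected shares of all genes called were 2.83% for lithium in HT, 8.84% for lithium in WT and 2.64% for fluoxetine in WT.

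The list of further pericyte genes held 14, of which 2 rose in HT under lithium (Cspg4 and Pdgfb) and 1 rose and 2 fell in WT. Pdgfb encodes a ligand of the pericyte receptor and is no pericyte marker. Cspg4 is also among the oligodendrocyte progenitor markers used here. The counts therefore describe the list and not pericytes alone. Pdgfb had 0.27 ± 0.08 in HT and 0.40 ± 0.08 in WT, Cox4i2 -0.57 ± 0.18 and Art3 -0.37 ± 0.12 in WT. Of 12 further smooth muscle genes Smtn rose in HT (0.38 ± 0.10) and 0 were called in WT. With the correction 0 of the HT calls of these 2 lists held (0.15 for Pdgfb, 0.23 for Cspg4 and 0.25 for Smtn). In WT the call of Pdgfb held (0.42), and Cox4i2 (-0.52, adjusted p = 0.0577) and Art3 (-0.31, adjusted p = 0.103) were no longer called. Of 7 venous genes Lcn2, a lipocalin, rose in WT (1.67 ± 0.40) and the amino acid carrier gene Slc38a5 fell (-0.59 ± 0.17), with no call in HT. Beside the counts of this paragraph, 9.77% of all genes were called under lithium in HT and 11.7% in WT. With the correction the shares were 2.83% in HT and 8.84% in WT. The 1 of 12 smooth muscle genes in HT lies near the background. For fluoxetine in HT, 0 genes of the 10 lists were called.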

How the data were processed

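Poly(A) RNA-seq of mouse prefrontal cortex had been reduced to 1 value per gene and library. The deposited values carry the unit signal: gene counts that the authors divided by 1 size factor per library. The submitters' processing notes name Salmon 0.11.2, R 3.6.0, DESeq2 1.19.11 and the build GRCm38, without their order. Dividing by the smallest step of each library returned whole reads for 100% of the values, within a tolerance of 1e-06. The deposited table has 59 columns. Of these, 56 match a labelled sample and were used, and 3 do not and were not used, and 1 labelled sample, WT lithium female 5, was not analysed here. Symbols were matched for 18077 of 18088 genes, and lengths and GC content come from a GRCm38 gene annotation. No 2 libraries of a group agreed within sampling noise (lowest chi-square per degree of freedom 4.94 over 105 pairs).

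The filter kept 18026 genes that reached a value of 10 in 3 or more libraries, and these were tested with limma 3.58.1 in R 4.3.3, with a mean-variance trend, on log2(value + 1). All 12 groups entered 1 fit with 44 residual degrees of freedom. Tests were two-sided, with Benjamini-Hochberg adjustment over all genes of a comparison at 0.05. The alternatives were edgeR 4.0.16 on the recovered reads, other scalings, filters, pseudocounts and weights, a replicate block, a correction for gene GC content and length by a spline of 4 degrees of freedom per library, an olfactory covariate, and leaving out libraries. The fits without the 14 most olfactory libraries, with GC and olfactory terms together, and the GC correction of the further lists were chosen after seeing the data. On simulated data for lithium in WT over 18026 genes, the test recovered 66% of 100 genes changed by 0.5 on the log2 scale and 89% of 100 changed by 1, with 8 false among 163 calls. The simulation drew each gene independently, without GC slopes, olfactory differences or litters. Its rates therefore need not hold for the real libraries.

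The 35 genes, the marker lists and the 10 further lists were chosen with earlier results of these data known. All 35 are named, and of each further list up to 4 called genes with the smallest p per drug comparison, or fewer where the text gives counts.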

Additional observations from a re-analysis of the deposited data

Results flagged for a closer look

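In groups of 4 or 5 libraries, 407 combinations of a group with a gene or a class level were tested for a library far from the others. Of these 25 had one, all for single genes. Chance gives about 5% of such tests, which is near that number. Values are scaled counts.

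In endothelial genes of the lithium groups, WT lithium male 4 had 9.54 of the apelin receptor Aplnr, where the other males had 53.0 to 66.7, and 2254 of the carrier Slco1a4, where they had 1440 to 1598. WT lithium female 2 had 298 of Tie1, beside 461 to 493 in the other females. Slco1a4 was low in WT lithium female 4, at 1410 beside 1579 to 1596, and Foxq1 was high in the same library, at 112 beside 95.4 to 96.8. Sox17 stood at 235 in WT lithium female 1, beside 163 to 173.

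In the fluoxetine groups Kdr had 822 in HT fluoxetine female 3 (others 681 to 714), Abcb1a 796 in female 1 (others 1005 to 1078), Prnd 46.0 in female 2 (others 12.4 to 21.4) and Emcn 228 in HT fluoxetine male 4 (others 143 to 162). In WT fluoxetine females Cldn5 had 868 in female 3 (others 1279 to 1387), Vwf 1205 in female 1 (others 663 to 782) and Pltp 1744 in female 2 (others 1379 to 1472). Foxq1 had 87.9 in WT fluoxetine male 5 (others 58.0 to 64.3).

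Under vehicle, HT female 2 was low in Pecam1, at 594 beside 652 to 668, and in Mfsd2a, at 625 beside 792 to 845. Sox17 had 215 in HT vehicle female 4 (others 179 to 187). In WT vehicle females Cdh5 had 613 in female 4 (others 443 to 470), Lmo2 468 in female 3 (others 348 to 381) and Tie1 283 in female 5 (others 340 to 360).

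Of the mural genes, Tagln had 131 in WT lithium female 2, beside 236 to 253, and Kcnj8 had 103 in WT lithium female 1, beside 97.6 to 98.5, and 140.3 in HT fluoxetine female 4, beside 91.8 to 105. Pdgfrb had 621 in HT fluoxetine female 1, the library that was also low in Abcb1a, beside 803 to 872. Rgs5 had 2926 in WT vehicle female 5, the library that was also low in Tie1, beside 4678 to 4985.

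The fluoxetine effect in WT differed between males and females by the limma interaction, males minus females on the log2 scale, for Sox18 (-0.99), Notch3 (-0.92), Cldn5 (-0.85), Eng (-0.83), Pdgfrb (-0.70) and Tie1 (-0.61), with the adjusted p of each given above. The Cldn5 value includes WT fluoxetine female 3, and it was also called without that library.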

How the results depend on the processing

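No called fold change turned its direction under any setting run, and of 26 called values 16 kept the call without any 1 library. Counts of called genes follow as endothelial then mural for drug against vehicle, with the count reported above in brackets; where a cause is not built into the setting, the cause was not tested. Lithium in WT gave 2 (1) mural genes under compared groups only, array weights, edgeR, the GC and length correction, the olfactory covariate and GC with the olfactory covariate. TMM scaling, no trend, no filter and a pseudocount of 5 left every count within 1.5 times of that reported. Lithium in HT gave 11 (7) and 6 (1) with array weights, 1 and 0 with the GC and length correction, 2 mural with compared groups only or the olfactory covariate, and 0 mural without the 14 most olfactory libraries. Fluoxetine in WT gave 2 (1) endothelial genes with the replicate block, array weights, the GC correction or without the 2 libraries apart, and 3 with the olfactory covariate, with or without GC; mural genes gave 1 (0) with array weights and with GC and olfactory terms. Fluoxetine in HT gave 1 (0) endothelial gene with array weights. Besides the main fit, shares of all genes called were computed for edgeR and, in the drug comparisons, for the GC and length correction. Counts under the other settings, here and below, have no such share beside them. A larger or smaller count there is not by itself a result about these genes.

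HT against WT under lithium gave 2 (0) endothelial genes with array weights and without the 14 libraries. The lithium interaction gave 1 (0) endothelial gene with array weights, the olfactory covariate and GC with olfactory terms, and 2 endothelial and 1 mural without the 14 libraries; array weights gave 1 mural. Males against females gave 1 (2) endothelial gene with the block, the olfactory covariate, GC with olfactory terms and without the 2 libraries, and 0 without the 14. The sex difference of fluoxetine in WT had 12 (6) genes with array weights and 0 with the GC correction, with GC and olfactory terms, and without the 14 libraries. That of lithium in WT had 4 (0) with array weights, 2 with the olfactory covariate and 1 without the 14; that of lithium in HT had 4 (0) with array weights; and that of the HT effect under vehicle had 7 (0) with array weights and 2 with compared groups only.

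Leaving out 1 library gave 7 to 9 endothelial and 0 to 2 mural genes for lithium in WT, 5 to 8 and 0 to 1 for lithium in HT, 1 to 3 and 0 to 1 for fluoxetine in WT, 0 to 1 endothelial for the interaction, 1 to 2 for males against females, 4 to 7 for the sex difference of fluoxetine in WT, and 0 to 1 for those of lithium in WT and of the HT effect under vehicle, with 0 throughout for the other counts. Over 289 same-numbered pairs of libraries of different groups, the correlation of deviations had a median of -0.003 and was over 0.1 in 67, so the numbers do not pair the libraries. At this depth the smallest called change of the 35 genes was that of Lmo2 between the sexes (-0.16 on the log2 scale), and Prnd and Aplnr, with the lowest counts, had the widest errors.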
